A study of Homo sapiens with 12 samples.

Results

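Cancer tissue grown beside cardiac tissue was compared with cancer tissue grown alone, gene by gene, in 8 of the 12 libraries of the study. The tissue was made of MDA-MB-231 cells, a triple-negative and mesenchymal-like human breast cancer line, which carried a green fluorescent protein and were embedded in fibrin gel in a perfused plate. All groups shared the gel, the perfusion and the harvest 5 days after seeding. The monoculture held this cancer tissue alone (4 libraries). The cardiac co-culture held it in the same device as cardiac tissue, whose cardiomyocytes were derived from induced pluripotent stem cells and which held 2% cardiac fibroblasts (4 libraries). The hepatic co-culture held HepG2 cells and 2% lung fibroblasts (4 libraries). It entered the expression filter, the joint scaling, the estimate of the spread, the principal components and the tests between the co-cultures. RNA was taken from the middle well with the cancer tissue, so a difference can reflect all cells in that well, and fewer cells of a type cannot be told apart from less RNA per cell. The labels call the libraries biological replicates without saying whether they came from separate seedings, so the p-values reflect only how far these libraries spread, which may be technical. Of the 58735 genes counted, 17468 had enough counts to be tested, and all of them were members of the comparison. Levels are given as CPM, which are counts scaled to a common library size and composition, and the 4 values of a group are in the order of replicates 1 to 4. Log2 fold changes are cardiac minus monoculture. Adjusted p-values come from the quasi-likelihood test of edgeR, adjusted by Benjamini-Hochberg over all tested genes and called at 0.05. The standard error after ± is derived from that test, as the absolute log2 fold change divided by the square root of its F statistic. It therefore adds no evidence beyond the p-value.

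Cancer cells that are short of oxygen stabilise hypoxia-inducible factors, which raise genes of glycolysis, lactate export, blood vessel growth and collagen modification. NF-kB is a transcription factor family held in the cytosol by inhibitor proteins and released by inflammatory signals, and its targets include its own inhibitors, chemokines, adhesion molecules and acute-phase proteins. YAP and TAZ are co-activators that enter the nucleus on stiff or spread substrates and act through TEAD factors on genes such as ANKRD1, CTGF and CYR61. In MDA-MB-231 cells, matrix proteases, chemokines and matricellular proteins are among the genes linked to spread to distant organs.

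Cardiac replicate 4 stood apart from the other cardiac libraries. On the first principal component of log2 CPM (28.5% of the variance), monoculture ranged from -51.05 to -22.32, cardiac replicates 1 to 3 from 6.79 to 16.3, and cardiac replicate 4 lay at -24.94. Its root-mean-square log2 distance to the nearest library was 0.5555, to monoculture replicate 2, against 0.5976 to the nearest cardiac library, replicate 3. Results are therefore given with and without it, and where a gene has a pair of log2 fold changes, the first is from all libraries and the other without cardiac replicate 4. A gene said to be called only without that library was called in that edgeR fit and not in the one with all libraries. Other settings could still call it. Its depth was 37400378 counts, while cardiac replicates 1 to 3 had 26986277 to 32701886 and the monoculture 35042363 to 42047064. The defining cardiomyocyte genes were near 0: MYH7 and TBX5 had 0 counts in all 8 libraries, and TNNT2 at most 4. MYH6, a cardiac myosin heavy chain, and MYL7, an atrial myosin light chain, had 21 and 8 counts in that library but 0 in the remaining 7. Over 24 cardiomyocyte markers the summed level was 19.12 to 23.74 CPM in monoculture and 26.26 to 27.33 CPM in the cardiac co-culture (26.84 in replicate 4). Of these 24, 6 were tested, and 1 (DES, given below) was called higher in both fits and 0 lower, against 4.86% and 3.28% of all genes. RYR2 and TNNC1 crossed 0 with 1 library left out (-0.39 to 0.12 and -0.19 to 0.86). Over 18 fibroblast markers the summed level was 418.9 to 494.5 CPM and 393.4 to 502.2 CPM (454.5 in replicate 4), with THY1, POSTN, MFAP5 and TWIST2 at 0 in all 8. That sum is made largely of S100A4, which is also a marker of the cancer line, at 239.4 to 363.3 CPM in monoculture and 143.8 to 217.4 CPM in the cardiac co-culture, and of COL5A1, at 86.9 to 142.8 and 176.5 to 309.4 CPM, and both had separate groups, in opposite directions. Of 7 tested endothelial markers, 3 were called higher in both fits and 0 lower, against 4.86% and 3.28% of all genes. TIE1, an endothelial receptor tyrosine kinase, was at 0.3875, 0.4849, 0.06924 and 0.5275 CPM in monoculture and 1.723, 2.38, 1.892 and 1.711 CPM in the cardiac co-culture, with separate groups and log2 fold changes of 2.4 (adjusted p = 0.00324) and 2.45 (adjusted p = 0.000709). VWF, von Willebrand factor, was at 0.5259, 0.7912, 0.4847 and 0.583 CPM and 1.539, 1.587, 2.869 and 0.5 CPM, with replicate 4 inside the monoculture range, at 1.44 (adjusted p = 0.0362) and 1.75 (adjusted p = 0.00166). The other was ENG, given with BMP signalling. TIE1 stayed called with any of the 12 libraries left out, VWF in 6 of these 12 fits (adjusted p = 0.16 without cardiac replicate 3) and not in the 8 libraries alone. Of the 7 tested endothelial markers, 5 had a positive log2 fold change with all libraries. Over the 12 leave-one-out fits KDR was at -0.59 to -0.32 and PECAM1 at -0.23 to 0.05, and both were called in 0 of them. The part of RNA from other cells in the results was not tested. The 12 markers listed for the labelled cancer line summed to 4931 to 5366 CPM in monoculture and 4880 to 5305 CPM in the cardiac co-culture, with none at 0. Of these 12, 1 was called higher and 3 lower in both fits, against 4.86% and 3.28% of all genes. Without replicate 4 it was 2 and 5 of the 12, against 9.97% and 9.35%. These markers are not exclusive to this line, S100A4 being listed for fibroblasts too, so the sum does not identify it.

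**Figure D1:**
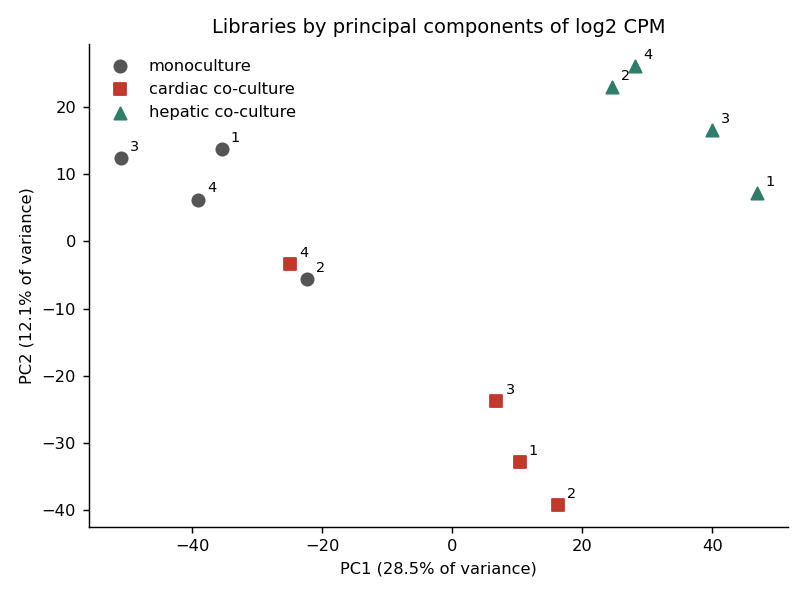
First and second principal components of log2 CPM for the 12 libraries, with axes giving the share of the variance and numbers giving the replicate. Cardiac replicates 1 to 3 lie between -39.2 and -23.73 on the second component, whereas cardiac replicate 4 lies at -3.41 beside monoculture replicate 2.

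In all, 1443 of 17468 genes (8.26%) differed between cardiac co-culture and monoculture, 862 of them higher (4.93%) and 581 lower (3.33%), and 149 by at least 2-fold. Without cardiac replicate 4 the test called 3375 genes (19.3%), 1742 higher (9.97%) and 1633 lower (9.35%), of which 393 changed by at least 2-fold. Both fits called 1422 genes (8.14%), 849 of them higher (4.86%) and 573 lower (3.28%), 21 were called only with replicate 4 and 1953 only without it. Cardiac replicate 4 lay within the range of the monoculture in 8936 of all tested genes (51.2%) and in 1237 of the 1953, a set that its own values helped to choose. All 4 cardiac libraries lay above all 4 monoculture libraries in 7.77% of tested genes and below them in 7.47%, and cardiac replicates 1 to 3 did so in 32.2% in either direction. The split of directions depended on scaling: 59.7% of calls were higher with TMM and 72.2% with upper-quartile scaling (1076 higher and 414 lower), while the median log2 fold change of all tested genes moved only from 0.006 to 0.039. The count fell to 551, 374 and 496 without monoculture replicate 1, 3 or 4 and to 533, 257 and 393 without cardiac replicate 1, 2 or 3. Fitted to the 8 libraries alone, 18 of the 119 rule-named genes that were called lost the call: VEGFA, PFKL, GAPDH, CHI3L2, C1R, C1S, ATOH8, ENG, KRT19, OSMR, ERRFI1, DUSP6, MT2A, PLIN2, AQP3, PRRG4, MT-RNR2 and AC245041.2.

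**Figure D2:**
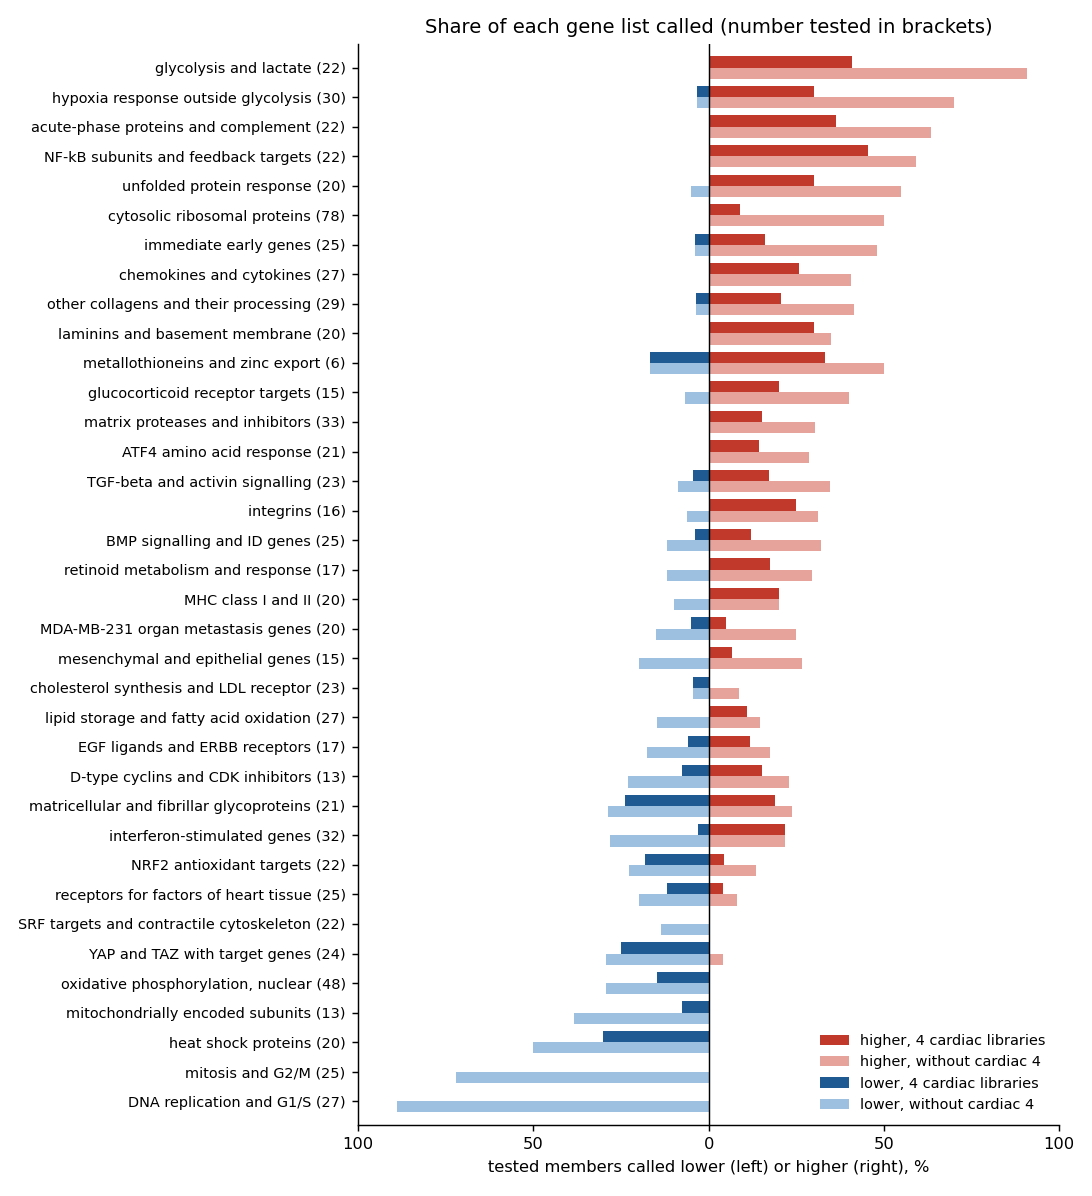
Share of the tested members of 36 gene lists called higher (to the right, red) or lower (to the left, blue) in the cardiac co-culture, with all 4 cardiac libraries (dark) and without cardiac replicate 4 (pale); the number of members tested is in brackets. Dark bars are longest for NF-kB genes and glycolysis on the right and heat shock proteins on the left, and the cell cycle lists have pale bars only.

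Of 30 tested genes of the hypoxia response outside glycolysis, 9 were called higher in the cardiac co-culture and 1 lower, against 4.93% and 3.33% of all genes. Without cardiac replicate 4 it was 21 higher and 1 lower, against 9.97% and 9.35%. The counts of every list below are to be read beside these same shares of all genes. The median log2 fold change of the list was 0.76, and 0.92 without that library, against 0.01 for all tested genes in both. NARF, a nuclear prelamin-binding protein on chromosome 17, and ANKRD37, a small ankyrin-repeat protein on chromosome 4, are shown by their promoters, the 250 bases before the first start that RefSeq lists (GRCh38.p14), because they carry 3 matches each to the hypoxia-inducible factor core, ACGTG or GCGTG on either strand. Capitals mark the matches; in CACGTG the matches of both strands overlap.
NARF, chr17:82457948-82458197, plus strand: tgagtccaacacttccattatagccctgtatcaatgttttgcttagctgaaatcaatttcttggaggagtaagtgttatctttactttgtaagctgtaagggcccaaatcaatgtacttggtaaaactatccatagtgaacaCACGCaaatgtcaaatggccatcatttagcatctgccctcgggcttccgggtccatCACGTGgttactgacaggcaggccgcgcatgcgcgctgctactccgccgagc
ANKRD37, chr4:185396591-185396840, plus strand: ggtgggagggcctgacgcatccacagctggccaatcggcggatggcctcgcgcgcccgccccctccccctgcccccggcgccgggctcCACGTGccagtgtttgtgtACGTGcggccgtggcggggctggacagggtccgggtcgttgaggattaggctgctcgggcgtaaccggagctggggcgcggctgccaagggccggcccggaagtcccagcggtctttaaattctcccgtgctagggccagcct
The core was present in 22 of the 24 promoters of this list that had an entry (91.7%) and in 6092 of 10780 promoters of tested protein-coding genes (56.5%). Over the lists the share ran from 6.25% (acute-phase and complement) to 94.7% (unfolded protein response), with 88.2% in cholesterol synthesis, so a high share was not particular to this list. Among genes called higher in both fits 52.1% held it. The match is a description of these letters only.

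NARF was at 30.3, 39.1, 28.1 and 33.4 CPM in monoculture and 52.7, 61.6, 49.9 and 43.7 CPM in the cardiac co-culture. All 4 cardiac libraries were above the monoculture, with replicate 4 the lowest of them. The log2 fold change was 0.67 ± 0.11 (adjusted p = 0.00484), and 0.74 ± 0.11 (adjusted p = 0.000358) without replicate 4. VEGFA, the main growth factor for blood vessels, was at 251, 406, 173 and 203 CPM in monoculture and 808, 1090, 789 and 353 CPM in the cardiac co-culture. Cardiac replicates 1 to 3 were above every monoculture library, but replicate 4 was below monoculture replicate 2. This gave a log2 fold change of 1.56 ± 0.38 (adjusted p = 0.0402) and 1.79 ± 0.32 (adjusted p = 0.00639) without replicate 4. HIF1A, the oxygen-regulated subunit of the factor itself, went the other way, from 592, 486, 642 and 591 CPM to 391.9, 382, 426 and 484 CPM with no overlap, a log2 fold change of -0.46 ± 0.09 (adjusted p = 0.00742) and of -0.53 ± 0.08 without replicate 4 (adjusted p = 0.000487). ZNF395, a zinc-finger protein, with cardiac replicate 4 inside the monoculture range, had 0.6 ± 0.11 (adjusted p = 0.00668) and 0.68 ± 0.1 without replicate 4 (adjusted p = 0.000383). The remaining members called in both fits were KDM3A and KDM4B, histone demethylases, MXI1, an antagonist of MYC, DDIT4, an inhibitor of mTOR signalling, CA12, a carbonic anhydrase, and WSB1, at log2 fold changes of 0.41 to 1.03 and, without replicate 4, 0.44 to 1.16. The calls of NARF, HIF1A and ZNF395 held in all 12 leave-one-out fits. The weakest of these 12 fits was without cardiac replicate 2 for VEGFA (4 of 12 fits called, adjusted p = 0.121).

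Other members were called without replicate 4 and not with all libraries. ADM, the vasodilator peptide adrenomedullin, was at 10.1, 42, 8.24 and 11.6 CPM in monoculture and 112, 129, 75.5 and 25.7 CPM in the cardiac co-culture. Monoculture replicate 2 exceeded cardiac replicate 4, and the other cardiac libraries were above both. The log2 fold change of ADM was 2.25 ± 0.67 (adjusted p = 0.0708) and 2.55 ± 0.61 (adjusted p = 0.0219) without replicate 4. NDRG1, a stress-responsive protein, ran from 311, 902, 115 and 255 CPM to 1891, 2383, 1550 and 482 CPM, at 1.99 ± 0.65 (adjusted p = 0.0924) and 2.29 ± 0.6 (adjusted p = 0.0309). ADM and NDRG1 were also called without monoculture replicate 2. ANKRD37 had a log2 fold change of 0.58, not called, and 0.72, called without replicate 4. CA9, a carbonic anhydrase of hypoxic tumours, had 2.88 and 3.24 and was called in neither fit. Within the monoculture, replicate 2 was highest and replicate 3 lowest for this list, with library medians of 0.52 and -0.47 around the monoculture mean, where cardiac replicates 1 to 4 had 1.06, 1.02, 0.82 and 0.34. Between 3 members (without cardiac replicate 2) and 24 (without monoculture replicate 2) were called higher when 1 library was left out.

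**Figure D3:**
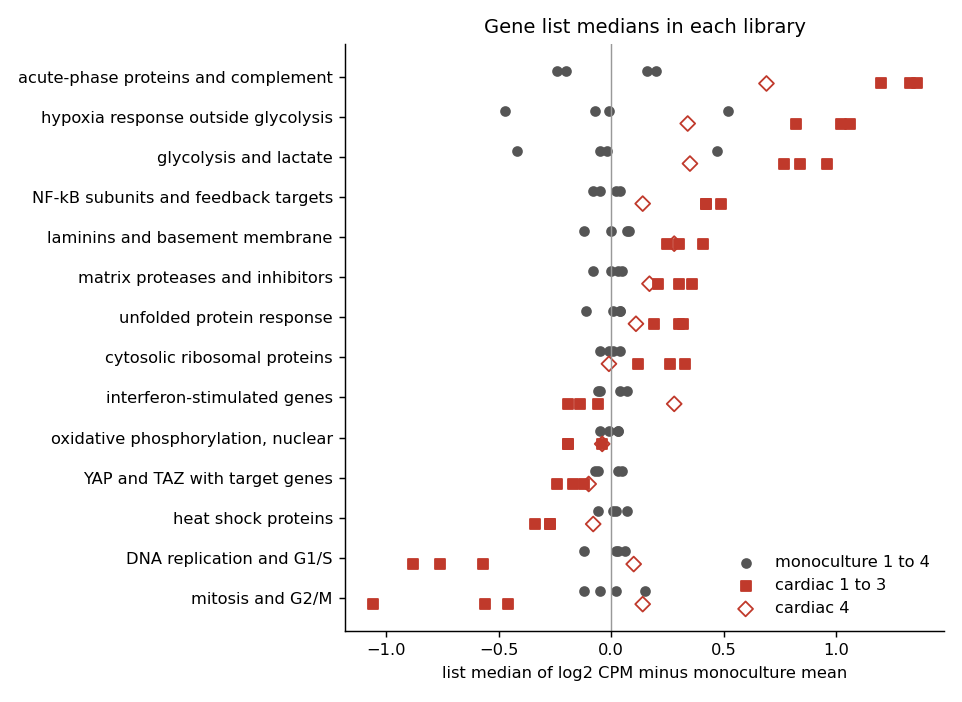
Median over each gene list of log2 CPM minus the monoculture mean (horizontal axis), for monoculture replicates 1 to 4 (grey circles), cardiac replicates 1 to 3 (red squares) and cardiac replicate 4 (open diamond). Cardiac replicate 4 lies near the monoculture for the ribosomal list (-0.01) and the cell cycle lists (0.1 and 0.14) and between the groups for the acute-phase list (0.69).

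Of 22 tested genes of glycolysis and lactate handling, 9 were called higher in the cardiac co-culture and 0 lower, and without cardiac replicate 4 it was 20 and 0. The list medians were 0.73 and 0.83. GPI, which converts glucose 6-phosphate to fructose 6-phosphate, was at 390.3, 517, 318 and 396 CPM in monoculture and 658, 717, 627 and 521 CPM in the cardiac co-culture. Every cardiac library was above every monoculture library, by a narrow margin between monoculture replicate 2 and cardiac replicate 4. In the fit the log2 fold change was 0.64 ± 0.13 (adjusted p = 0.012) and 0.72 ± 0.12 without replicate 4 (adjusted p = 0.00148). PFKL, the liver-type phosphofructokinase, went from 185, 265, 139.6 and 191 to 343, 381, 352 and 280.5 CPM without overlap, at 0.8 ± 0.16 (adjusted p = 0.0157) and 0.88 ± 0.16 (adjusted p = 0.00426). PFKP, the platelet-type isozyme, had 0.47 ± 0.1 (adjusted p = 0.012) and 0.54 ± 0.09 (adjusted p = 0.000934). GAPDH, often used as a reference gene, was at 1733, 2227, 1385 and 1647 CPM and 2890, 2978, 2548 and 2012 CPM, overlapping between monoculture replicate 2 and cardiac replicate 4, with 0.58 ± 0.16 (adjusted p = 0.0412) and 0.68 ± 0.15 (adjusted p = 0.00646), and was not called without the low-count filter. PKM, pyruvate kinase, had 0.3 ± 0.08 (adjusted p = 0.0231) and 0.33 ± 0.08 (adjusted p = 0.00524). Enolase 2, aldolase A, phosphoglycerate mutase 1 (PGAM1) and the lactate exporter SLC16A3 were the other members called in both fits, from 0.37 for PGAM1 upward, and from 0.41 without replicate 4. SLC2A1 and SLC2A3, the main glucose importers, were called only without replicate 4, at 1.05 and 1.62 (0.9 and 1.39 with all libraries), and the isozymes HK1 and PFKM in neither fit, at 0.08 and 0 with all libraries and 0.11 and -0.06 without it. With any of the 12 libraries left out, GPI was still called. Leaving out 1 library weakened the call most without cardiac replicate 2 for PFKL (11 of 12 fits called, adjusted p = 0.0561), PFKP (11 of 12 fits called, adjusted p = 0.0504), GAPDH (4 of 12 fits called, adjusted p = 0.128) and PKM (6 of 12 fits called, adjusted p = 0.0882). The count of members called higher ranged from 1 without cardiac replicate 2 to 20 without cardiac replicate 4 or monoculture replicate 2. The hypoxia core was in 12 of 21 promoters of this list (57.1%), near the share of all promoters.

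Laminin chains were the basement membrane genes called higher, together with agrin. Of 20 tested members, 6 were called higher and 0 lower, and 7 and 0 without cardiac replicate 4, with medians of 0.31 and 0.3. LAMA3, the alpha chain of epithelial laminins, was at 69.8, 66.3, 54.8 and 59 CPM in monoculture and 102, 109.7, 109 and 93.1 CPM in the cardiac co-culture. The groups did not overlap, and cardiac replicate 4 was the lowest of its group. That is a log2 fold change of 0.73 ± 0.1 (adjusted p = 0.00156) and 0.78 ± 0.1 without replicate 4 (adjusted p = 0.000134). LAMB1, a widely expressed beta chain, went from 204, 206, 154 and 196 to 269.6, 249, 259 and 236 CPM, and LAMA5, an alpha chain of mature basement membranes, from 1045, 1084, 931 and 1027 to 1291, 1542, 1526 and 1304 CPM. Neither overlapped, at 0.42 ± 0.08 (adjusted p = 0.00976) and 0.47 ± 0.1 (adjusted p = 0.01). Without replicate 4 they had 0.45 ± 0.09 (adjusted p = 0.0018) and 0.51 ± 0.1 (adjusted p = 0.00183). LAMB2, LAMB3 and AGRN, the heparan sulphate proteoglycan agrin, were also called in both fits, at 0.3, 0.33 and 0.43, and 0.32, 0.39 and 0.5 without replicate 4. None of the 6 tested collagen IV chains was called in either fit, with log2 fold changes of -0.4 to 0.34. In all 12 fits that left out 1 library each, LAMA3, LAMB1 and LAMA5 stayed called. Between 3 and 7 members were called over these fits, with the lowest count without monoculture replicate 3 or 4 or cardiac replicate 1, 2 or 3.

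Among 29 tested genes of other collagens and collagen processing, 6 were called higher and 1 lower, and 12 and 1 without cardiac replicate 4. COL7A1, the chain of anchoring fibrils, was at 15.6, 21, 18.8 and 19.6 CPM in monoculture and 24.6, 39.9, 32.8 and 25.5 CPM in the cardiac co-culture. The groups were separate, and cardiac replicates 1 and 4 lay close to each other. The estimated log2 fold change was 0.71 ± 0.13 (adjusted p = 0.00728) and 0.79 ± 0.13 (adjusted p = 0.000744). LOXL2, which crosslinks collagen, and SERPINH1, the collagen chaperone of the endoplasmic reticulum, had 0.39 ± 0.08 (adjusted p = 0.00863) and 0.37 ± 0.07 (adjusted p = 0.0106), and 0.44 ± 0.07 and 0.37 ± 0.08 without replicate 4 (adjusted p = 0.000744 and 0.00366). PLOD1 and P4HA2, hydroxylases of collagen lysine and proline, had 0.81 and 0.5, and 0.93 and 0.58 without replicate 4, and were called in both fits. COL5A1, a fibrillar collagen chain, was at 123, 143, 86.9 and 112 CPM and 226, 309, 202 and 176 CPM without overlap, at 0.97 ± 0.28 (adjusted p = 0.0637, not called) and 1.08 ± 0.3 without replicate 4 (adjusted p = 0.0388). LOX, lysyl oxidase, ran from 89.7, 224, 71.5 and 93.5 CPM to 363, 443, 249.9 and 111 CPM, with monoculture replicate 2 above cardiac replicate 4, at 1.28 ± 0.47 (adjusted p = 0.125) and 1.55 ± 0.4 (adjusted p = 0.0295). COL1A1, the main chain of fibroblast collagen, was at 6.12, 5.36, 6 and 6.33 CPM and 5.39, 4.65, 7.39 and 6.79 CPM, with fully overlapping groups and 0.03 ± 0.19 (adjusted p = 0.947), and -0.03 ± 0.21 without replicate 4 (adjusted p = 0.942). COL12A1, a fibril-associated chain, was the member called lower, at -0.46 and -0.58. That call ended without cardiac replicate 1, 2 or 3 or monoculture replicate 2, 3 or 4. It also ended without hepatic replicate 1 or 4. No left-out library ended the calls of COL7A1, LOXL2 and SERPINH1.

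The matricellular and fibrillar glycoproteins moved in both directions, with 4 of 21 tested members called higher and 5 lower, and 5 and 6 without cardiac replicate 4. TGFBI, an integrin-binding matrix protein, was at 28.3, 51, 22.5 and 29.7 CPM in monoculture and 147, 176, 111 and 60.5 CPM in the cardiac co-culture. Its groups were separate, although monoculture replicate 2 and cardiac replicate 4 were near each other. Its log2 fold change was 1.91 ± 0.4 (adjusted p = 0.0244) and 2.14 ± 0.35 (adjusted p = 0.00447). FN1, fibronectin, went from 8380, 8242, 5450 and 7432 to 14560, 16440, 13940 and 9478 CPM, at 0.88 ± 0.23 (adjusted p = 0.0405) and 1.02 ± 0.22 (adjusted p = 0.00962), and the call ended without the low-count filter. TNC, tenascin C, a protein of metastatic niches, went from 188, 203, 156 and 203 to 241, 249.5, 294 and 266 CPM with cardiac replicate 4 above replicates 1 and 2, at 0.49 ± 0.09 (adjusted p = 0.00593) and 0.48 ± 0.09 (adjusted p = 0.00198). EFEMP2, a fibulin of elastic fibres, had 1.02 ± 0.21 (adjusted p = 0.0115) and 1.17 ± 0.2 (adjusted p = 0.000818). The members called lower in both fits were THBS1, which activates latent TGF-beta, NOV, CYR61 and CTGF of the CCN family, and the fibulin EFEMP1, at -0.63 to -0.38, and -0.83 to -0.42 without replicate 4. TNC stayed called whichever of the 12 libraries was left out. The highest adjusted p over the leave-one-out fits came without cardiac replicate 2 for TGFBI (6 of 12 fits called, adjusted p = 0.0789), FN1 (5 of 12 fits called, adjusted p = 0.119) and EFEMP2 (11 of 12 fits called, adjusted p = 0.0526).

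Matrix proteases and their inhibitors were called higher in 5 of 33 tested members and lower in 0, and in 10 and 0 without cardiac replicate 4. MMP14, the membrane-anchored collagenase that activates proMMP2, was at 556, 552, 434 and 488 CPM in monoculture and 799.7, 884, 835 and 615 CPM in the cardiac co-culture. There was no overlap, and replicate 4 was the lowest cardiac library. The log2 fold change was 0.63 ± 0.13 (adjusted p = 0.0147) and 0.72 ± 0.12 (adjusted p = 0.000831). MMP11, stromelysin 3, rose from 9.47, 9.47, 8.05 and 9.66 to 17.1, 15.2, 16.2 and 12.4 CPM, at 0.73 ± 0.12 (adjusted p = 0.0038) and 0.82 ± 0.12 (adjusted p = 0.000222). PLAUR, the urokinase receptor, had 0.44 ± 0.08 (adjusted p = 0.00623) and 0.49 ± 0.08 (adjusted p = 0.000579). MMP1, interstitial collagenase, was at 39.6, 44.8, 9.19 and 26.8 CPM and 170.1, 147, 147 and 21.4 CPM. Cardiac replicates 1 to 3 were far above every monoculture library, whereas replicate 4 lay inside the monoculture range. This gave a log2 fold change of 2.01 ± 0.66 (adjusted p = 0.091) and 2.37 ± 0.48 without replicate 4 (adjusted p = 0.0107). MMP10, stromelysin 2, had the same arrangement, 3.88, 4.62, 0.993 and 1.55 CPM and 22, 19.8, 15.7 and 1.13 CPM, with 2.41 ± 0.83 (adjusted p = 0.107) and 2.8 ± 0.55 (adjusted p = 0.00889). PLAU, urokinase, had -0.09 ± 0.1 (adjusted p = 0.609) and -0.19 ± 0.09 (adjusted p = 0.142), called in neither fit. The leave-one-out fits kept the calls of MMP11 and PLAUR in 12 of 12 cases. With 1 library left out, the adjusted p was highest without cardiac replicate 2 for MMP14 (11 of 12 fits called, adjusted p = 0.056).

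Of 16 tested integrin subunits, 4 were called higher and 0 lower, and 5 and 1 without cardiac replicate 4. ITGA5, the alpha chain of the fibronectin receptor, was at 184, 226, 192 and 179 CPM in monoculture and 323, 376, 305 and 244 CPM in the cardiac co-culture. Each cardiac library exceeded each monoculture library. In the fit the log2 fold change was 0.68 ± 0.12 (adjusted p = 0.0096) and 0.78 ± 0.11 (adjusted p = 0.000267). ITGB3, the beta chain of the vitronectin and fibrinogen receptors, went from 7.72, 10.6, 7.78 and 13.7 to 22, 33.5, 23.5 and 14.7 CPM, at 1.23 ± 0.3 (adjusted p = 0.0341) and 1.41 ± 0.27 (adjusted p = 0.00674). ITGA10, a collagen-binding chain, had 0.34 ± 0.09 (adjusted p = 0.028) and 0.43 ± 0.08 (adjusted p = 0.00144), and ITGB8, which activates latent TGF-beta, 1.01 and 1.27. ITGB1, the shared beta chain, was at 973, 963, 869.8 and 920.1 CPM and 938, 892, 858 and 878 CPM, overlapping throughout, at -0.06 ± 0.07 (adjusted p = 0.614) and -0.06 ± 0.07 (adjusted p = 0.646). Leaving out each of the 12 libraries in turn kept the call of ITGA5. Leave-one-out fits were weakest without cardiac replicate 2 for ITGA10 (6 of 12 fits called, adjusted p = 0.113) and without monoculture replicate 3 for ITGB3 (6 of 12 fits called, adjusted p = 0.103).

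NF-kB subunits and feedback targets were called higher in 10 of 22 tested members and lower in 0, and in 13 and 0 without cardiac replicate 4, with medians of 0.33 and 0.39. TNFAIP2, a TNF-induced exocyst-related protein at chr14:103123442-103137439 (GRCh38), was at 136, 130.1, 121 and 131 CPM in monoculture and 203, 222, 216 and 181 CPM in the cardiac co-culture. The highest monoculture library was well under the lowest cardiac library, replicate 4. That is a log2 fold change of 0.66 ± 0.09 (adjusted p = 0.00156) and 0.72 ± 0.09 without replicate 4 (adjusted p = 7.34e-05). TNIP1, a ubiquitin-binding partner of TNFAIP3 that restrains NF-kB, went from 163, 195, 155 and 170.1 to 255, 259.8, 257 and 213 CPM, at 0.53 ± 0.08 (adjusted p = 0.00324) and 0.59 ± 0.08 (adjusted p = 0.000134). ICAM1, an adhesion molecule for leukocytes, went from 24, 40.05, 27.2 and 36.9 to 62.3, 82.4, 61 and 48.2 CPM, at 0.98 ± 0.18 (adjusted p = 0.0115) and 1.1 ± 0.16 (adjusted p = 0.000968). The groups were separate for both. TNFAIP3, NFKBIZ and BCL3, which regulate the pathway, had 0.88, 1.02 and 0.75, RELB and NFKB2, its alternative-arm subunits, 0.57 and 0.3, and SOD2, mitochondrial superoxide dismutase, 0.65, all called in both fits. Without replicate 4 the same 6 genes had 1.01, 1.18, 0.85, 0.69, 0.34 and 0.8. NFKBIA, the main inhibitor, and NFKB1 were called in neither, at 0.07 and -0.01, and 0.14 and -0.03 without it. The calls of TNFAIP2, TNIP1 and ICAM1 held in all 12 leave-one-out fits. The members called higher numbered 4 without cardiac replicate 1 or 2 or monoculture replicate 1, and 13 without cardiac replicate 4.

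Of 27 tested chemokines, cytokines and receptors, 7 were called higher and 0 lower, and 11 and 0 without cardiac replicate 4. TNFSF10, the death ligand TRAIL, was at 17, 22.7, 23.7 and 24.2 CPM in monoculture and 52.6, 53.6, 39.3 and 35.1 CPM in the cardiac co-culture. All cardiac libraries were higher, replicates 1 and 2 most. The estimated log2 fold change was 1.04 ± 0.17 (adjusted p = 0.00743) and 1.14 ± 0.17 (adjusted p = 0.000744). IL32, a cytokine of epithelial and immune cells, had 0.92 ± 0.17 (adjusted p = 0.00728) and 1.04 ± 0.17 (adjusted p = 0.000672), and CXCL3, a neutrophil chemokine, 1.35 ± 0.3 (adjusted p = 0.0155) and 1.53 ± 0.29 (adjusted p = 0.00187). IL1A, IL1B, CCL20 and the scavenging chemokine receptor ACKR3 had 1.63, 0.91, 1.41 and 1.75, and 1.91, 1.08, 1.66 and 2.05 without replicate 4, and were called in both fits. CXCL8, the neutrophil chemokine interleukin 8, was at 29.9, 29.5, 22 and 30.9 CPM and 90.2, 96.5, 71.8 and 26.4 CPM. Cardiac replicates 1 to 3 lay far above the monoculture and replicate 4 inside its range. Its log2 fold change was 1.34 ± 0.36 (adjusted p = 0.0535) and 1.62 ± 0.19 without replicate 4 (adjusted p = 0.000512). IL6 ran from 8.05, 10.03, 7.18 and 8.44 CPM to 15.3, 13.9, 11.8 and 6.92 CPM, with replicate 4 below all monoculture libraries, at 0.5 ± 0.19 (adjusted p = 0.0969) and 0.7 ± 0.14 (adjusted p = 0.00232). IL11, a bone-metastasis cytokine, and CXCR4, the receptor of CXCL12, had 0.14 ± 0.32 (adjusted p = 0.8294) and -0.41 ± 0.41 (adjusted p = 0.576), and 0.32 ± 0.33 and -0.42 ± 0.47 without replicate 4 (adjusted p = 0.554 and 0.59), called in neither fit. With any of the 12 libraries left out, TNFSF10 and IL32 were still called. They were the only 2 members called higher without cardiac replicate 2 or monoculture replicate 3. IL1A, IL1B, CCL20 and ACKR3 were thus not called in those fits. Leaving out 1 library weakened the call most without cardiac replicate 2 for CXCL3 (10 of 12 fits called, adjusted p = 0.0604).

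Acute-phase and complement genes had the highest list median, 1.21, and 1.31 without cardiac replicate 4. Of 22 tested members, 8 were called higher and 0 lower, and 14 and 0 without that library. CFB, factor B of the alternative complement pathway, was at 3.93, 4.8, 3.42 and 4.78 CPM in monoculture and 9.57, 12, 10.5 and 7.53 CPM in the cardiac co-culture. The groups did not overlap and replicate 4 was nearest to the monoculture. The log2 fold change was 1.23 ± 0.18 (adjusted p = 0.00196) and 1.34 ± 0.18 (adjusted p = 0.000135). Its promoter (RefSeq, GRCh38.p14, 250 bases before the first listed start) is shown because it holds 2 matches to the NF-kB motif, which is GGGA followed by any 4 bases and CC, searched on both strands and set in capitals.
CFB, chr6:31945845-31946094, plus strand: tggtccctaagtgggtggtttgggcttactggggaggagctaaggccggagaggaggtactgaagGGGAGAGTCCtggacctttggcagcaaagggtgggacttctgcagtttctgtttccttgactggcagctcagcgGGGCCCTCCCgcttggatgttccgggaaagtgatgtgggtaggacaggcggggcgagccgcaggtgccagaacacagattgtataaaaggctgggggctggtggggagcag
The motif was in 7 of 16 promoters of this list (43.8%), 10 of 20 of the NF-kB list (50%) and 2977 of 10780 promoters of tested protein-coding genes (27.6%). Over the lists it ran from 0% (metallothioneins) to 50%, a share that the matricellular list also had, with 47.1% in cholesterol synthesis. Among genes called higher in both fits the share was 27.9%, near that of all promoters.

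C1R and C1S, the serine proteases of the first complement component, went from 24.7, 39.3, 23.8 and 32.1 to 94.1, 116, 82.3 and 39.8 CPM and from 10.2, 17.4, 13.3 and 20.7 to 42.2, 49.7, 37.8 and 20.8 CPM. Cardiac replicate 4 was only just above the monoculture in both. The log2 fold changes were 1.47 ± 0.3 (adjusted p = 0.0231) and 1.29 ± 0.28 (adjusted p = 0.0252), and 1.7 ± 0.19 and 1.49 ± 0.21 without replicate 4 (adjusted p = 0.000358 and 0.000744). CHI3L2, a chitinase-like secreted protein, went from 13.6, 16, 3.88 and 9.63 to 60.5, 48.3, 49.2 and 19.5 CPM, at 2.04 ± 0.49 (adjusted p = 0.0379) and 2.29 ± 0.45 (adjusted p = 0.00927). FGG, the fibrinogen gamma chain, went from 0.609, 1.48, 0.3 and 1.17 to 4.47, 4.8, 3.3 and 1.79 CPM, at 2.01 ± 0.53 (adjusted p = 0.0391) and 2.24 ± 0.5 (adjusted p = 0.0094). LBP, which binds bacterial lipopolysaccharide, CP, ceruloplasmin, and SAA2, a serum amyloid, had 2.83, 2.58 and 1.32, and 3.16, 2.89 and 1.46 without replicate 4, and were called in both fits. Many of these proteins are made by hepatocytes, and the 17 hepatocyte markers summed to 42.36 to 74.67 CPM in monoculture and 70.34 to 96.34 CPM in the cardiac co-culture (73.54 in replicate 4), with APOA2, TTR and RBP4 at 0 in all 8 libraries. Nearly all of that sum is 1 acute-phase gene, SERPINA1, at 40.93 to 74.05 CPM and 68.68 to 94.08 CPM, and it was the 1 marker of the 17 with enough counts to be tested. In all 12 fits that left out 1 library each, CFB stayed called. Of the leave-one-out fits, the weakest was without cardiac replicate 2 for CHI3L2 (4 of 12 fits called, adjusted p = 0.106) and FGG (5 of 12 fits called, adjusted p = 0.111) and without monoculture replicate 3 for C1R (6 of 12 fits called, adjusted p = 0.0751) and C1S (7 of 12 fits called, adjusted p = 0.0853). Only 1 member stayed called without cardiac replicate 1, 2 or 3 or monoculture replicate 1 or 3.

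Interferon-stimulated genes moved in both directions. Of 32 tested members, 7 were called higher and 1 lower, and 7 and 9 without cardiac replicate 4, with medians of 0.1 and -0.12. IRF7, a master regulator of the response, went from 16.4, 14.6, 17.1 and 15.7 to 19.2, 26.3, 22.3 and 26.3 CPM, with replicate 4 as high as replicate 2, at 0.56 ± 0.11 (adjusted p = 0.00845) and 0.5 ± 0.12 (adjusted p = 0.00553). IFITM3 and IFITM2, antiviral membrane proteins, had 0.51 ± 0.11 (adjusted p = 0.0122) and 0.72 ± 0.15 (adjusted p = 0.0172), and 0.56 ± 0.11 and 0.8 ± 0.15 without replicate 4 (adjusted p = 0.00326 and 0.00367). IFIT1, IFIT2, IFIT3, ISG15, OAS2 and OASL, classical induced genes, were called lower only without replicate 4, at -0.97 to -0.74. The library medians of the list were -0.14, -0.19 and -0.06 in cardiac replicates 1 to 3 and 0.28 in replicate 4. No left-out library ended the call of IRF7. The call was least secure without cardiac replicate 2 for IFITM3 (11 of 12 fits called, adjusted p = 0.0508) and without monoculture replicate 3 for IFITM2 (9 of 12 fits called, adjusted p = 0.061).

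Of 20 tested MHC genes, 4 were called higher and 0 lower, and 4 and 2 without cardiac replicate 4. They included the class I heavy chains HLA-B, HLA-C and HLA-E, which present peptides to T cells and natural killer cells. HLA-E was at 328, 349, 309 and 344 CPM in monoculture and 473, 497, 424 and 404 CPM in the cardiac co-culture, with no overlap. This gave a log2 fold change of 0.44 ± 0.07 (adjusted p = 0.00471) and 0.48 ± 0.07 (adjusted p = 0.000317). HLA-B had 0.35 ± 0.09 (adjusted p = 0.0264), and 0.37 ± 0.09 without replicate 4 (adjusted p = 0.0111). These loci resemble each other and how multiply matching reads were counted is not stated in the sources used here, so the split between them is uncertain. The class II genes had log2 fold changes of 0.01 to 0.55 with all libraries and -0.13 to 0.43 without replicate 4, and none was called. HLA-E stayed called whichever of the 12 libraries was left out. The highest adjusted p over the leave-one-out fits came without cardiac replicate 2 for HLA-B (8 of 12 fits called, adjusted p = 0.0962).

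DHRS3, a retinaldehyde reductase that is itself induced by retinoic acid, had the highest log2 fold change among protein-coding genes called in both fits with separate groups and a mean log2 CPM above 1. It lies at chr1:12567910-12617731 (GRCh38). Its level was 0.803, 1.123, 0.854 and 1.22 CPM in monoculture and 5.86, 5.52, 4.24 and 2.37 CPM in the cardiac co-culture. All cardiac libraries were above the monoculture, replicate 4 by the least. In the fit the log2 fold change was 2.16 ± 0.26 (adjusted p = 0.000701) and 2.38 ± 0.22 without replicate 4 (adjusted p = 1.51e-05). TGM2, tissue transglutaminase, which crosslinks matrix proteins, went from 802, 912, 734 and 901 to 1431, 1589, 1375 and 1131 CPM with separate groups, at 0.72 ± 0.1 (adjusted p = 0.00196) and 0.81 ± 0.09 (adjusted p = 6.43e-05). RARA, a retinoic acid receptor, with cardiac replicate 4 inside the monoculture range, had 0.84 ± 0.2 (adjusted p = 0.029) and 0.97 ± 0.18 (adjusted p = 0.00264). These were the 3 of 17 tested retinoid genes called higher, with 0 lower, and without replicate 4 it was 5 and 2. The leave-one-out fits kept the calls of DHRS3 and TGM2 in 12 of 12 cases. With 1 library left out, the adjusted p was highest without cardiac replicate 2 for RARA (6 of 12 fits called, adjusted p = 0.093).

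In TGF-beta and activin signalling, 4 of 23 tested members were called higher and 1 lower, and 8 and 2 without cardiac replicate 4. LTBP3, which stores latent TGF-beta in the matrix, was at 61.2, 71.4, 58.6 and 68.9 CPM in monoculture and 114, 144, 116 and 102 CPM in the cardiac co-culture. There was no overlap, and replicate 4 was the lowest of its group. That is a log2 fold change of 0.87 ± 0.12 (adjusted p = 0.00287) and 0.94 ± 0.12 (adjusted p = 0.000316). LTBP4 went from 148, 161, 126 and 146 to 230, 255, 232 and 187 CPM, at 0.64 ± 0.12 (adjusted p = 0.0115) and 0.72 ± 0.12 (adjusted p = 0.00123). INHBA and INHBB, subunits of activins, moved in opposite directions. INHBA had 1.96 and 2.26, and INHBB fell from 30.1, 30.04, 37.8 and 31.6 to 16.9, 16.5, 18 and 24.5 CPM, at -0.77 ± 0.14 (adjusted p = 0.00668) and -0.92 ± 0.13 (adjusted p = 0.00025). TGFBR2, the type II receptor, had 0.41 and 0.53 and was called in both fits, whereas TGFB1, TGFB2 and TGFB3, the ligands, were called in neither, at 0.46, -0.32 and 0.02, and 0.55, -0.32 and -0.02 without replicate 4. Leaving out each of the 12 libraries in turn kept the calls of LTBP3, LTBP4 and INHBB. Without cardiac replicate 1, 2 or 3, hepatic replicate 3, or monoculture replicate 1, 3 or 4, only 2 members were called higher. These were LTBP3 and LTBP4, and not INHBA or TGFBR2.

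Of 25 tested genes of BMP signalling, 3 were called higher and 1 lower, and 8 and 3 without cardiac replicate 4. ATOH8, a transcription factor induced by BMP, fell from 35.4, 33.7, 68.7 and 55 to 21.7, 20.6, 20.9 and 32.8 CPM, with cardiac replicate 4 just below monoculture replicate 2. The estimated log2 fold change was -1 ± 0.23 (adjusted p = 0.025) and -1.2 ± 0.21 (adjusted p = 0.00259). ID3, an inhibitor of differentiation and direct BMP target, was at 27.2, 16.3, 36.5 and 32.7 CPM and 3.67, 4.76, 6.17 and 19.6 CPM. Cardiac replicates 1 to 3 were far below the monoculture and replicate 4 was inside its range. Its log2 fold change was -1.7 ± 0.49 (adjusted p = 0.0648) and -2.53 ± 0.26 without replicate 4 (adjusted p = 0.000135). ID1 was called only without replicate 4, at -0.74 (-0.53 with it). CHRD, the secreted BMP antagonist chordin, had 2.05 and 2.35 and was called in both fits, GDF15, a stress-induced ligand, had 0.82 ± 0.19 (adjusted p = 0.0161) and 0.95 ± 0.17 (adjusted p = 0.00124), and ENG, endoglin, 0.71 ± 0.21 (adjusted p = 0.0441) and 0.66 ± 0.23 (adjusted p = 0.048). BMP5, a ligand, ran from 0.443, 0.791, 0 and 0.389 CPM to 2.42, 2.87, 2.14 and 0.526 CPM. It was called without replicate 4, at 2.62 ± 0.53 (adjusted p = 0.00515), and not with all libraries. BMP5 was also called without monoculture replicate 2 or 3. In ENG, cardiac replicate 1 lay below monoculture replicate 4. The weakest of the 12 leave-one-out fits was without cardiac replicate 2 for ATOH8 (8 of 12 fits called, adjusted p = 0.0878), GDF15 (10 of 12 fits called, adjusted p = 0.0613) and ENG (3 of 12 fits called, adjusted p = 0.156).

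Of 24 tested genes of YAP and TAZ with their targets, 6 were called lower and 0 higher, against 3.33% and 4.93% of all genes, and 7 and 1 without cardiac replicate 4, with medians of -0.13 and -0.18. ANKRD1, a nuclear ankyrin-repeat protein and a standard readout of YAP, was at 61.6, 59.2, 95.4 and 87 CPM in monoculture and 25.1, 29.96, 27 and 44.3 CPM in the cardiac co-culture. All 4 cardiac libraries were below the monoculture. The log2 fold change was -1.26 ± 0.24 (adjusted p = 0.0158) and -1.47 ± 0.22 (adjusted p = 0.0016). CYR61 and CTGF, secreted matricellular proteins of the same family, went from 374, 349, 483 and 399.9 to 234, 258, 273 and 311 CPM and from 146, 156, 184 and 194 to 121, 136, 126 and 143 CPM. Neither pair of groups overlapped, although CTGF in cardiac replicate 4 was close to monoculture replicate 1. Their log2 fold changes were -0.58 ± 0.11 (adjusted p = 0.00735) and -0.38 ± 0.1 (adjusted p = 0.0367), and -0.65 ± 0.11 and -0.42 ± 0.11 without replicate 4 (adjusted p = 0.000867 and 0.0169). AMOTL2, a feedback inhibitor of YAP, AXL, a receptor tyrosine kinase, and MYOF, a membrane-repair protein, had -0.57, -0.32 and -0.25 ± 0.06, and -0.74, -0.42 and -0.26 without replicate 4. YAP1 itself was called only without replicate 4, at -0.25 (-0.21 with it), and WWTR1, which encodes TAZ, in neither fit, at -0.02 and 0.01.

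The CTGF promoter (RefSeq, GRCh38.p14, 250 bases before the first listed start) is shown because it holds 3 matches, in capitals, to the TEAD motif GGAATG, searched on both strands.
CTGF, chr6:131951373-131951622, minus strand: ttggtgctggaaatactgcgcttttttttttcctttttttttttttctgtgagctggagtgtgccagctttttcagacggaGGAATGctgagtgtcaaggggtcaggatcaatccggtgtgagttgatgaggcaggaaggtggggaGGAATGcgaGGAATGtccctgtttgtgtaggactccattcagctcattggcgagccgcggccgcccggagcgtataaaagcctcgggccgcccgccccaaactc
The motif was in 6 of 18 promoters of the YAP list (33.3%) and in 1035 of 10780 promoters of tested protein-coding genes (9.6%). The matricellular list, which also holds CYR61 and CTGF, had 33.3% as well. The motif was in 11.5% of the promoters of genes called lower in both fits and 7.9% of those called higher. With any of the 12 libraries left out, CYR61 was still called. Leaving out 1 library weakened the call most without cardiac replicate 2 for ANKRD1 (10 of 12 fits called, adjusted p = 0.0613) and without monoculture replicate 1 for MYOF (8 of 12 fits called, adjusted p = 0.0774) and without monoculture replicate 3 for CTGF (7 of 12 fits called, adjusted p = 0.122). The members called lower ranged from 1, without cardiac replicate 2 or 3, to 8, without hepatic replicate 1 or monoculture replicate 2. SRF targets and contractile cytoskeleton genes had 0 of 22 called in either direction with all libraries by edgeR, where 2 were higher and 6 lower at an unadjusted p under 0.05 and DESeq2 called 1 lower. It was 3 lower without cardiac replicate 4, the myosin light chain MYL9 (-0.69), actin ACTB (-0.25) and vinculin VCL (-0.23).

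Cell cycle genes were called lower by edgeR when cardiac replicate 4 was left out, and not with all libraries. With all libraries, edgeR called 0 of 27 tested G1/S genes and 0 of 25 G2/M genes in either direction, where 14 and 4 were lower at an unadjusted p under 0.05 and DESeq2 called 2 and 3 lower. Without that library, 24 and 18 were called lower and 0 higher. With any other library left out 0 G1/S genes were called, and 0 G2/M genes except 1 without hepatic replicate 1. The list medians were -0.48 and -0.7 for G1/S and -0.42 and -0.68 for G2/M. By library, the G1/S median was -0.76, -0.88 and -0.57 in cardiac replicates 1 to 3 and 0.1 in replicate 4, and the G2/M median -0.56, -1.06, -0.46 and 0.14. MKI67, a marker of cycling cells, was at 316, 287, 258 and 319 CPM in monoculture and 172, 140.5, 237 and 374 CPM in the cardiac co-culture. Cardiac replicates 1 to 3 lay below all monoculture libraries and replicate 4 above all of them. This gave a log2 fold change of -0.35 ± 0.28 (adjusted p = 0.486) and -0.69 ± 0.21 without replicate 4 (adjusted p = 0.0444). MCM10, CLSPN, CDC45 and CDC6, which act at replication origins and forks, had -1.1, -1.16, -0.97 and -0.9 without replicate 4, and CDC20, PLK1 and CCNB1, which drive mitosis, -0.88, -0.82 and -0.63.

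CCND1, cyclin D1, fell in all cardiac libraries, from 298, 259, 326 and 307 to 162, 189.6, 202 and 253 CPM, where replicate 4 was just below the lowest monoculture library. In the fit the log2 fold change was -0.56 ± 0.1 (adjusted p = 0.00728) and -0.69 ± 0.08 without replicate 4 (adjusted p = 7.34e-05). CDKN1A, the kinase inhibitor p21, rose from 124, 121, 126 and 106 to 165, 152, 149.9 and 129 CPM, at 0.32 ± 0.08 (adjusted p = 0.0261) and 0.38 ± 0.08 (adjusted p = 0.00276). RBL2, a retinoblastoma-family protein, had 0.36 ± 0.11 (adjusted p = 0.0461) and 0.44 ± 0.1 (adjusted p = 0.00735). Of 13 tested D-type cyclins and inhibitors, 2 were called higher and 1 lower, and 3 and 3 without replicate 4. In all 12 fits that left out 1 library each, CCND1 stayed called. Of the leave-one-out fits, the weakest was without cardiac replicate 2 for RBL2 (3 of 12 fits called, adjusted p = 0.16) and without monoculture replicate 4 for CDKN1A (6 of 12 fits called, adjusted p = 0.0936).

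**Figure D4:**
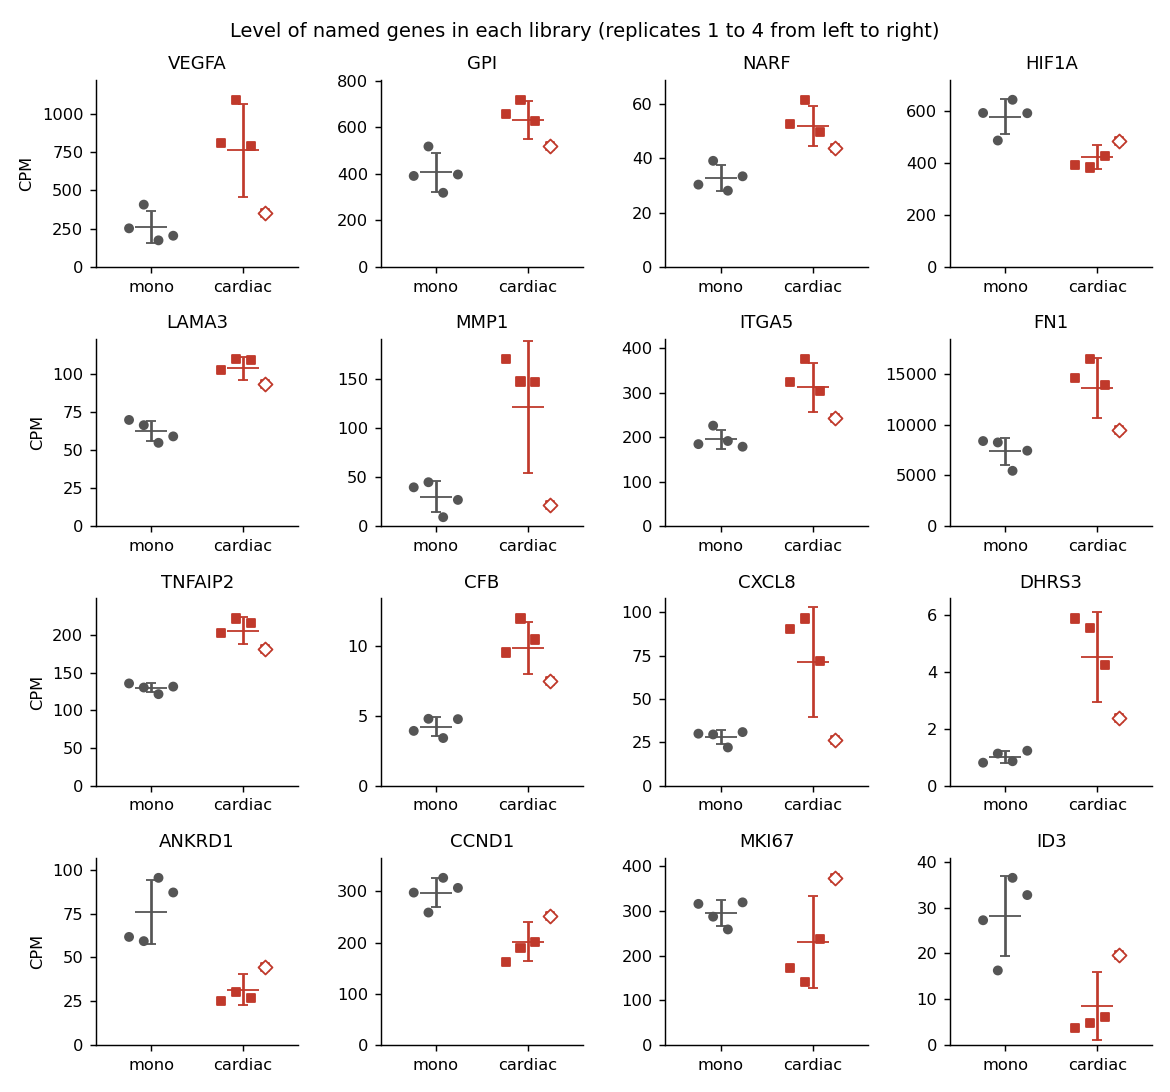
CPM of 16 genes (vertical axes, starting at 0) in monoculture replicates 1 to 4 (grey circles), cardiac replicates 1 to 3 (red squares) and cardiac replicate 4 (open diamond), with mean and SD of each group of 4. Cardiac replicate 4 stays on the cardiac side for NARF, LAMA3, TNFAIP2, CFB, DHRS3, ANKRD1 and CCND1 and falls among the monoculture values for MMP1, CXCL8 and ID3.

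Growth factor genes changed in small numbers. NRG1, a ligand of ERBB receptors made also by heart endothelium, fell from 33.8, 34.1, 34.8 and 29.2 to 20.1, 18.7, 21.7 and 26.1 CPM with separate groups, at -0.61 ± 0.11 (adjusted p = 0.00504) and -0.71 ± 0.1 (adjusted p = 0.000221). ERRFI1 and DUSP6, feedback inhibitors of EGF receptor and ERK signalling, had 0.47 ± 0.11 (adjusted p = 0.0191) and 0.35 ± 0.1 (adjusted p = 0.0416), and 0.58 ± 0.09 and 0.45 ± 0.09 without replicate 4 (adjusted p = 0.000345 and 0.00196). For both, replicate 4 lay inside the monoculture range. These were the 2 higher and 1 lower of 17 tested, and 3 and 3 without replicate 4. Of 25 receptors for factors of heart tissue, 1 was called higher and 3 lower, and 2 and 5 without replicate 4. For both lists the shares of all genes were 4.93% higher and 3.33% lower, and 9.97% and 9.35% without replicate 4. OSMR, the oncostatin M receptor, went from 291, 394, 298 and 338 to 553, 616, 503 and 358 CPM, at 0.62 ± 0.15 (adjusted p = 0.0269) and 0.75 ± 0.1 (adjusted p = 0.000236). F2RL1, a protease-activated receptor, and ADRA1B, an adrenergic receptor, had -0.49 ± 0.11 (adjusted p = 0.0171) and -0.5 ± 0.12 (adjusted p = 0.0199), and -0.62 ± 0.09 and -0.46 ± 0.13 without replicate 4 (adjusted p = 0.000259 and 0.0196). FGFR3, a fibroblast growth factor receptor, had -0.74 and -0.85. No left-out library ended the call of NRG1. The call was least secure without cardiac replicate 2 for ERRFI1 (6 of 12 fits called, adjusted p = 0.0748), DUSP6 (5 of 12 fits called, adjusted p = 0.145) and F2RL1 (7 of 12 fits called, adjusted p = 0.0613) and without monoculture replicate 3 for OSMR (6 of 12 fits called, adjusted p = 0.0862) and ADRA1B (9 of 12 fits called, adjusted p = 0.0746).

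Of 25 tested immediate early genes, 4 were called higher and 1 lower, and 12 and 1 without cardiac replicate 4. EGR1, a zinc-finger factor induced by mitogens, had 0.5 ± 0.12 (adjusted p = 0.0187) and 0.61 ± 0.1 (adjusted p = 0.000744), IER3, a survival factor, 0.4 ± 0.1 (adjusted p = 0.0212) and 0.47 ± 0.09 (adjusted p = 0.00185), and IER2 0.27 ± 0.07 (adjusted p = 0.0322) and 0.28 ± 0.08 (adjusted p = 0.0157). JUNB, an AP-1 subunit, had 0.81 and 0.97. KLF2, a factor of quiescent endothelium, was the member called lower, at -0.62 and -0.85. That call ended without cardiac replicate 1, 2 or 3 or monoculture replicate 1, 3 or 4. It also ended without hepatic replicate 2, 3 or 4. Glucocorticoid receptor targets had 3 higher and 0 lower of 15, and 6 and 1 without replicate 4. KLF9 went from 64.9, 73.7, 62.2 and 71.6 to 119, 126, 103 and 78 CPM, at 0.65 ± 0.15 (adjusted p = 0.0231) and 0.77 ± 0.11 (adjusted p = 0.000487), whereas FKBP5, a classical target, was called lower only without replicate 4, at -0.38 (-0.29 with it). The highest adjusted p over the leave-one-out fits came without cardiac replicate 2 for EGR1 (7 of 12 fits called, adjusted p = 0.0882), IER3 (7 of 12 fits called, adjusted p = 0.0852) and IER2 (6 of 12 fits called, adjusted p = 0.129) and without monoculture replicate 3 for KLF9 (6 of 12 fits called, adjusted p = 0.0751).

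Ribosomal protein genes shifted by small amounts. Of 78 tested, 7 were called higher and 0 lower, and 39 and 0 without cardiac replicate 4, with medians of 0.17 and 0.23. RPS27 went from 337, 328, 319.6 and 307 to 466, 478, 408 and 361 CPM, at 0.41 ± 0.1 (adjusted p = 0.0269) and 0.48 ± 0.1 (adjusted p = 0.0032). RPS3 and RPLP1 had 0.27 ± 0.07 (adjusted p = 0.0291) and 0.28 ± 0.08 (adjusted p = 0.0386), and 0.32 ± 0.07 and 0.28 ± 0.08 without replicate 4 (adjusted p = 0.00342 and 0.0269). Their many pseudogenes make single ribosomal counts uncertain. The list median was 0.33, 0.26 and 0.12 in cardiac replicates 1 to 3 and -0.01 in replicate 4. The count of members called fell to 0 without any of cardiac replicates 1, 2 and 3 or monoculture replicates 1, 3 and 4. With 1 library left out, the adjusted p was highest without cardiac replicate 2 for RPS27 (6 of 12 fits called, adjusted p = 0.0988) and RPS3 (6 of 12 fits called, adjusted p = 0.0968) and without monoculture replicate 3 for RPLP1 (6 of 12 fits called, adjusted p = 0.117).

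Nuclear genes of oxidative phosphorylation were called lower in 7 of 48 tested members and higher in 0, and in 14 and 0 without cardiac replicate 4. CYCS, cytochrome c, fell from 189, 158, 174 and 169 to 122, 105, 129.5 and 141 CPM with separate groups, at -0.47 ± 0.1 (adjusted p = 0.0134) and -0.54 ± 0.1 (adjusted p = 0.00205). UQCRFS1, the Rieske protein of complex III, and NDUFA4, a subunit of the respiratory chain, had -0.25 ± 0.06 (adjusted p = 0.0266) and -0.28 ± 0.07 (adjusted p = 0.0269), and -0.29 ± 0.06 and -0.3 ± 0.08 without replicate 4 (adjusted p = 0.00411 and 0.0102). The list median was -0.1 and -0.13. Of 13 mitochondrially encoded subunits, 1 was called lower, and 5 without replicate 4. It was MT-ATP8, a subunit of ATP synthase, which went from 16, 15.6, 17.8 and 15.7 to 11.9, 10.2, 9.95 and 10.9 CPM, at -0.6 ± 0.13 (adjusted p = 0.0153) and -0.61 ± 0.15 (adjusted p = 0.00777), and it overlaps MT-ATP6, so that shared reads are uncertain. MT-RNR2, the large mitochondrial ribosomal RNA, was higher, at 0.39 ± 0.11 (adjusted p = 0.0401) and 0.48 ± 0.1 (adjusted p = 0.00352). Without cardiac replicate 2 edgeR called 0 nuclear members, whereas with all libraries 17 were lower at an unadjusted p under 0.05 and DESeq2 called 10. Leave-one-out fits were weakest without cardiac replicate 2 for CYCS (11 of 12 fits called, adjusted p = 0.0516), UQCRFS1 (6 of 12 fits called, adjusted p = 0.108), NDUFA4 (7 of 12 fits called, adjusted p = 0.107), MT-ATP8 (9 of 12 fits called, adjusted p = 0.0575) and MT-RNR2 (5 of 12 fits called, adjusted p = 0.135).

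Protein folding genes split by compartment. In the endoplasmic reticulum, 6 of 20 tested genes of the unfolded protein response were called higher and 0 lower, and 11 and 1 without cardiac replicate 4. HSPA5, the chaperone BiP, went from 1067, 1105, 949 and 1051 to 1424, 1539, 1367 and 1218 CPM with separate groups, at 0.41 ± 0.08 (adjusted p = 0.00841) and 0.47 ± 0.08 (adjusted p = 0.000579). PDIA3 and PDIA4, disulphide isomerases, had 0.29 ± 0.07 (adjusted p = 0.0155) and 0.27 ± 0.06 (adjusted p = 0.0169), and 0.33 ± 0.07 and 0.28 ± 0.07 without replicate 4 (adjusted p = 0.0023 and 0.0062). Among heat shock proteins of the cytosol and mitochondria, 6 of 20 were called lower and 0 higher, and 10 and 0 without replicate 4. HSPH1, a nucleotide exchange factor of HSP70, fell from 249, 232, 306 and 249 to 176, 178, 174 and 186 CPM, and here cardiac replicate 4 lay with the other cardiac libraries. That is a log2 fold change of -0.54 ± 0.07 (adjusted p = 0.00156) and -0.55 ± 0.08 (adjusted p = 0.000242). HSPE1, a mitochondrial chaperonin, and HSPA8, the constitutive HSP70, had -0.46 ± 0.09 (adjusted p = 0.00774) and -0.34 ± 0.08 (adjusted p = 0.0209), and -0.5 ± 0.09 and -0.4 ± 0.08 without replicate 4 (adjusted p = 0.00166 and 0.0028). The calls of HSPA5, HSPH1 and HSPE1 held in all 12 leave-one-out fits. The weakest of these 12 fits was without cardiac replicate 2 for HSPA8 (6 of 12 fits called, adjusted p = 0.0876) and without monoculture replicate 3 for PDIA3 (10 of 12 fits called, adjusted p = 0.0621) and PDIA4 (9 of 12 fits called, adjusted p = 0.0693).

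Of 21 tested genes of the ATF4 amino acid response, 3 were called higher and 0 lower, and 6 and 0 without cardiac replicate 4. DDIT3, the factor CHOP, was at 6.59, 6.05, 7.46 and 6.61 CPM in monoculture and 14, 14.6, 12.9 and 6.82 CPM in the cardiac co-culture. Replicates 1 to 3 were well above the monoculture and replicate 4 was inside its range. The estimated log2 fold change was 0.85 ± 0.19 (adjusted p = 0.0167) and 1.05 ± 0.14 (adjusted p = 0.000173). SESN2, a stress sensor that inhibits mTORC1, and TRIB3, a pseudokinase, had 0.71 ± 0.17 (adjusted p = 0.0176) and 0.86 ± 0.19 (adjusted p = 0.0194), and 0.88 ± 0.13 and 1.03 ± 0.11 without replicate 4 (adjusted p = 0.00029 and 6.18e-05). Amino acid synthesis enzymes such as PSAT1 and ASNS were called in neither fit, at -0.24 and 0.53, and -0.22 and 0.46 without replicate 4. Leaving out 1 library weakened the call most without cardiac replicate 2 for DDIT3 (8 of 12 fits called, adjusted p = 0.0656) and SESN2 (7 of 12 fits called, adjusted p = 0.0682) and without monoculture replicate 3 for TRIB3 (6 of 12 fits called, adjusted p = 0.0667).

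NRF2 targets had 4 members called lower and 1 higher of 22 tested, and 5 and 3 without cardiac replicate 4. GCLM, which makes glutathione, fell from 89.8, 91.5, 115 and 94.6 to 71.6, 69.2, 63.8 and 78.1 CPM and PRDX1, a peroxiredoxin, from 253, 243, 273 and 247 to 193, 162, 197 and 216 CPM, both with separate groups. Their log2 fold changes were -0.47 ± 0.09 (adjusted p = 0.00668) and -0.4 ± 0.08 (adjusted p = 0.00841), and -0.52 ± 0.09 and -0.46 ± 0.08 without replicate 4 (adjusted p = 0.000876 and 0.000709). FTH1, the ferritin heavy chain, rose from 296, 374, 345 and 342 to 517, 536, 517 and 390.5 CPM, at 0.53 ± 0.11 (adjusted p = 0.0144) and 0.63 ± 0.1 (adjusted p = 0.000563). HMOX1, heme oxygenase 1, was at 9.13, 8.86, 11.1 and 7.27 CPM and 9.46, 9.82, 8.97 and 9.13 CPM, at 0.04 ± 0.15 (adjusted p = 0.902), and 0.05 ± 0.16 without replicate 4 (adjusted p = 0.872), called in neither fit. Of 6 genes of zinc handling, the metallothioneins MT1E and MT2A were called higher, at 0.31 ± 0.07 (adjusted p = 0.0144) and 0.26 ± 0.08 (adjusted p = 0.0441), and 0.34 ± 0.07 and 0.31 ± 0.08 without replicate 4 (adjusted p = 0.0029 and 0.00901). The zinc exporter SLC30A1 was called lower, at -0.43 ± 0.09 (adjusted p = 0.0126) and -0.56 ± 0.07 (adjusted p = 0.000111). In all 12 fits that left out 1 library each, GCLM and PRDX1 stayed called. Of the leave-one-out fits, the weakest was without cardiac replicate 2 for FTH1 (11 of 12 fits called, adjusted p = 0.0555), MT1E (10 of 12 fits called, adjusted p = 0.0605), MT2A (3 of 12 fits called, adjusted p = 0.16) and SLC30A1 (11 of 12 fits called, adjusted p = 0.0557).

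Of 27 tested genes of lipid storage and fatty acid oxidation, 3 were called higher and 0 lower, and 4 and 4 without cardiac replicate 4. G0S2, which inhibits the lipase of lipid droplets, went from 13, 15.8, 12.3 and 16 to 44.5, 33.1, 31.4 and 20.6 CPM. The groups did not overlap, and cardiac replicate 4 was the nearest to the monoculture. Its log2 fold change was 1.18 ± 0.18 (adjusted p = 0.00593) and 1.34 ± 0.12 (adjusted p = 1.51e-05). PNPLA2, that lipase, had 0.28 ± 0.08 (adjusted p = 0.035) and 0.29 ± 0.08 (adjusted p = 0.0166), and PLIN2, a droplet coat protein, 0.61 ± 0.16 (adjusted p = 0.0411) and 0.74 ± 0.12 (adjusted p = 0.000818). CPT1A, the gate of fatty acid oxidation, was called lower only without replicate 4, at -0.51 (-0.38 with it). In cholesterol synthesis 0 of 23 were called higher and 1 lower by edgeR, the sterol desaturase SC5D at -0.37 ± 0.08 (adjusted p = 0.0155) and -0.37 ± 0.09 (adjusted p = 0.00874), and 2 and 1 without replicate 4. Beside these lipid and cholesterol counts, the shares of all genes were 4.93% and 3.33%, and 9.97% and 9.35% without replicate 4. No left-out library ended the call of G0S2. The call was least secure without cardiac replicate 2 for PNPLA2 (6 of 12 fits called, adjusted p = 0.105) and without monoculture replicate 3 for PLIN2 (3 of 12 fits called, adjusted p = 0.118) and SC5D (9 of 12 fits called, adjusted p = 0.0677).

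Of 15 tested mesenchymal and epithelial markers, 1 was called higher and 0 lower, and 4 and 3 without cardiac replicate 4. KRT19, a simple-epithelial keratin, went from 329, 359, 245 and 292 to 438, 422, 399 and 345 CPM, at 0.39 ± 0.1 (adjusted p = 0.0283) and 0.45 ± 0.1 (adjusted p = 0.00432). VIM, vimentin, was at 775, 854, 626 and 657 CPM and 1026, 1047, 906 and 700.5 CPM, at 0.34 ± 0.13 (adjusted p = 0.108) and 0.45 ± 0.1 without replicate 4 (adjusted p = 0.00629). CD44, the hyaluronan receptor, was at 360.4, 362, 368 and 364 CPM and 321, 316, 309.7 and 342 CPM with separate groups, at -0.17 ± 0.07 (adjusted p = 0.102) and -0.2 ± 0.07 (adjusted p = 0.0369). Of 20 tested genes earlier linked to organ metastasis of this line, 1 was called higher (TNC) and 1 lower (CTGF), and 5 and 3 without replicate 4. PTGS2, cyclooxygenase 2, and CXCL1 joined MMP1 there, at 1.83 and 1.8. For the marker and the metastasis list the shares of all genes were 4.93% higher and 3.33% lower, and 9.97% and 9.35% without replicate 4. The highest adjusted p over the leave-one-out fits came without cardiac replicate 2 for KRT19 (7 of 12 fits called, adjusted p = 0.0949).

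Outside these lists, the highest log2 fold changes among protein-coding genes called in both fits, with separate groups and a mean log2 CPM above 1, belonged to SSPO, LRG1, C1QTNF1, TMEM91 and AOC3, beside members already described. LRG1, a secreted glycoprotein that acts on endothelial TGF-beta signalling, was at 3.88, 8.42, 5.4 and 9.55 CPM in monoculture and 25.1, 26.8, 17.5 and 15.3 CPM in the cardiac co-culture. All cardiac libraries were higher, replicate 4 included. The log2 fold change was 1.63 ± 0.27 (adjusted p = 0.00841) and 1.76 ± 0.27 (adjusted p = 0.00125). SSPO went from 1.5, 1.69, 0.9 and 1.14 to 3.33, 5.03, 4.82 and 3.37 CPM, at 1.66 ± 0.33 (adjusted p = 0.00991) and 1.75 ± 0.35 (adjusted p = 0.00272), and TMEM91 from 1.11, 1.25, 0.923 and 0.972 to 2.82, 2.53, 3.3 and 2.58 CPM, at 1.4 ± 0.24 (adjusted p = 0.00448) and 1.44 ± 0.25 (adjusted p = 0.00103). In SSPO and TMEM91 cardiac replicate 4 was above cardiac replicate 1 and replicate 2, respectively. AOC3, an amine oxidase of vessel walls, had 1.37 ± 0.25 (adjusted p = 0.00668) and 1.54 ± 0.24 (adjusted p = 0.000487), and C1QTNF1, a secreted C1q-like protein, 1.49 ± 0.36 (adjusted p = 0.0253) and 1.68 ± 0.34 (adjusted p = 0.0044). The leave-one-out fits kept the calls of LRG1, SSPO, TMEM91 and AOC3 in 12 of 12 cases. With 1 library left out, the adjusted p was highest without monoculture replicate 3 for C1QTNF1 (6 of 12 fits called, adjusted p = 0.0883).

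At the low end stood BCAS1, a gene amplified in breast cancer, from 5.62, 2.91, 5.38 and 4.39 CPM to 0.257, 0.945, 0.916 and 2.29 CPM. Cardiac replicate 1 was lowest and replicate 4 nearest to the monoculture. This gave a log2 fold change of -2.01 ± 0.45 (adjusted p = 0.0192) and -2.68 ± 0.4 (adjusted p = 0.000383). NEXN, an actin-binding protein of muscle and fibroblasts, fell from 13.7, 13.9, 21.6 and 14.8 to 7.44, 7.86, 6.62 and 11.1 CPM, at -0.95 ± 0.2 (adjusted p = 0.0126) and -1.13 ± 0.2 (adjusted p = 0.00105). HPGD, which degrades prostaglandins, had -0.9 ± 0.22 (adjusted p = 0.0191) and -0.88 ± 0.24 (adjusted p = 0.0138), AQP3, a water and glycerol channel, -0.98 ± 0.27 (adjusted p = 0.0431) and -1.11 ± 0.29 (adjusted p = 0.0199), and CAPN8, a calpain protease, -0.88 ± 0.22 (adjusted p = 0.0253) and -0.83 ± 0.25 (adjusted p = 0.0302). PRRG4, ILDR2 and AUNIP, a protein of Aurora A and DNA repair, had -1.16 ± 0.28 (adjusted p = 0.0223), -1.09 ± 0.26 (adjusted p = 0.0191) and -0.84 ± 0.24 (adjusted p = 0.0424). Without replicate 4 these were -1.34 ± 0.3, -1.5 ± 0.23 and -1.04 ± 0.25 (adjusted p = 0.00542, 0.000456 and 0.00796). Leave-one-out fits were weakest without cardiac replicate 1 for CAPN8 (8 of 12 fits called, adjusted p = 0.0799) and without cardiac replicate 2 for BCAS1 (8 of 12 fits called, adjusted p = 0.0757), NEXN (10 of 12 fits called, adjusted p = 0.0526), ILDR2 (8 of 12 fits called, adjusted p = 0.0789) and AUNIP (5 of 12 fits called, adjusted p = 0.131) and without cardiac replicate 3 for AQP3 (4 of 12 fits called, adjusted p = 0.116) and without monoculture replicate 3 for HPGD (9 of 12 fits called, adjusted p = 0.0882) and PRRG4 (8 of 12 fits called, adjusted p = 0.0853).

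Among genes called without cardiac replicate 4 and not with all libraries, DEPP1, a progesterone- and FOXO-regulated gene, ran from 27.1, 74.5, 10.8 and 16.2 CPM to 168, 205, 126 and 37.5 CPM, at 2.37 ± 0.65 (adjusted p = 0.0362) and 2.06 ± 0.7 (adjusted p = 0.105) with all libraries. CYP1A1, the xenobiotic-metabolising target of the aryl hydrocarbon receptor, was at 14.8, 13.4, 73.6 and 24.9 CPM in monoculture and 3.23, 4.53, 5.13 and 15.3 CPM in the cardiac co-culture. Monoculture replicate 3 was far above the others, and cardiac replicate 4 was inside the monoculture range. In the fit the log2 fold change was -2.88 ± 0.67 (adjusted p = 0.0191) without replicate 4 and -2.15 ± 0.66 (adjusted p = 0.0772) with it. MUC5AC, a gel-forming mucin, went from 77.5, 45.3, 74.3 and 77.1 to 16.1, 15.7, 24.3 and 62.6 CPM, at -1.87 ± 0.22 (adjusted p = 0.000407) and -1.2 ± 0.43 (adjusted p = 0.116). SLC1A7, a glutamate transporter, SCIN, an actin-severing protein, and ROS1, a receptor tyrosine kinase, had -1.56 ± 0.36 (adjusted p = 0.00593), -1.37 ± 0.37 (adjusted p = 0.0141) and -1.33 ± 0.32 (adjusted p = 0.00698), and -0.87 ± 0.46, -1.11 ± 0.35 and -0.97 ± 0.32 with all libraries, not called. DEPP1 and SCIN were also called without monoculture replicate 2, and SCIN without hepatic replicate 1.

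Of 2352 long noncoding RNAs tested, 57 were called (2.42%), and 140 without cardiac replicate 4 (5.95%), where the shares of all tested genes were 8.26% and 19.3%. AC116345.1 rose from 1.38, 1.25, 2.12 and 0.972 to 5.57, 4.87, 3.6 and 2.87 CPM with separate groups, at 1.54 ± 0.25 (adjusted p = 0.00347) and 1.69 ± 0.24 (adjusted p = 0.000259). THCAT158, whose level in monoculture was at most 0.255 CPM, and AC004817.3 had 2.57 ± 0.57 (adjusted p = 0.0155) and 1.5 ± 0.33 (adjusted p = 0.0144), and 2.85 ± 0.53 and 1.56 ± 0.36 without replicate 4 (adjusted p = 0.00159 and 0.00578). AC245041.2, FBXL19-AS1 and LINC-PINT, a p53-linked transcript, fell, at -1.22 ± 0.3 (adjusted p = 0.025), -0.94 ± 0.28 (adjusted p = 0.0457) and -0.77 ± 0.2 (adjusted p = 0.0274), and -1.58 ± 0.29, -1.05 ± 0.31 and -0.88 ± 0.22 without replicate 4 (adjusted p = 0.00131, 0.0238 and 0.00819). The strand setting of the counting is not given, so FBXL19-AS1 and its sense partner cannot be told apart. FBXL19-AS1 was not called without the low-count filter. The call of AC116345.1 held in all 12 leave-one-out fits. The weakest of these 12 fits was without cardiac replicate 2 for THCAT158 (10 of 12 fits called, adjusted p = 0.054) and LINC-PINT (6 of 12 fits called, adjusted p = 0.105) and without cardiac replicate 3 for AC004817.3 (11 of 12 fits called, adjusted p = 0.058) and without monoculture replicate 3 for AC245041.2 (8 of 12 fits called, adjusted p = 0.101) and FBXL19-AS1 (4 of 12 fits called, adjusted p = 0.159).

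Among the most abundant genes called in both fits, beside those already named, PSAP, a lysosomal activator protein, rose from 1596, 1687, 1667 and 1775 to 2315, 2390, 2045 and 1916 CPM, at 0.37 ± 0.09 (adjusted p = 0.0234) and 0.42 ± 0.09 (adjusted p = 0.00339). LMNA, nuclear lamin A and C, fell from 979, 829, 896 and 806 to 677, 660.2, 700.1 and 818 CPM, with cardiac replicate 4 inside the monoculture range, at -0.3 ± 0.08 (adjusted p = 0.0275) and -0.37 ± 0.07 (adjusted p = 0.00181). CAV1, caveolin 1, and GSN, the actin-severing gelsolin, fell without overlap, at -0.33 ± 0.08 (adjusted p = 0.0164) and -0.46 ± 0.1 (adjusted p = 0.0152), and -0.35 ± 0.08 and -0.52 ± 0.1 without replicate 4 (adjusted p = 0.00482 and 0.00259). DES, the intermediate filament desmin of muscle, had counts of 39, 36, 39 and 53 in monoculture and 62, 72, 63 and 92 in the cardiac co-culture, at 1.09 and 1.08, and was called in both fits. S100A4, a calcium-binding protein listed with both fibroblast and MDA-MB-231 markers, had -0.74 and -0.89 and was called in both. Both of these were picked after their values were seen. With 1 library left out, DES was called in 10 of 12 fits and S100A4 in 9 of 12. For both the weakest fit was without cardiac replicate 2 (adjusted p = 0.0663 and 0.0711). Leaving out 1 library weakened the call most without cardiac replicate 2 for PSAP (6 of 12 fits called, adjusted p = 0.0945), LMNA (7 of 12 fits called, adjusted p = 0.106), CAV1 (9 of 12 fits called, adjusted p = 0.0699) and GSN (9 of 12 fits called, adjusted p = 0.0601).

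Whether a gene's level differed between the cardiac and the hepatic co-culture was tested directly in the same fit. The test called 1080 of 17468 genes (6.18%), 572 higher in the cardiac co-culture (3.27%) and 508 lower (2.91%). Without cardiac replicate 4 it called 846 (4.84%), 443 higher (2.54%) and 403 lower (2.31%). ATOH8 was higher in the cardiac than in the hepatic co-culture by 2.18 on the log2 scale (adjusted p = 0.000293), INHBB by 0.8 (adjusted p = 0.00188), TNIP1 by 0.55 (adjusted p = 0.000362) and ITGA5 by 0.44 (adjusted p = 0.0494). Without cardiac replicate 4 these differences were 1.98, 0.65, 0.61 and 0.55 (adjusted p = 0.000172, 0.00529, 5.63e-05 and 0.005). The metallothioneins MT1E and MT2A were higher by 1.8 (adjusted p = 9.76e-12) and 1.07 (adjusted p = 1.04e-07), and by 1.83 and 1.11 without replicate 4 (adjusted p = 7.2e-12 and 3.25e-08). Lower in the cardiac co-culture were ITGB3, with a difference of -1.5 (adjusted p = 0.0133), CYR61 with -0.63 (adjusted p = 0.00142), LAMA3 with -0.44 (adjusted p = 0.00949) and HIF1A with -0.41 (adjusted p = 0.00705). These became -1.33, -0.71, -0.39 and -0.49 without replicate 4 (adjusted p = 0.0219, 0.000609, 0.0289 and 0.0011). The call of ID3 depended on that library, with -0.43 (adjusted p = 0.697) and, without it, -1.26 (adjusted p = 0.0147). So did C1R, at 0.68 (adjusted p = 0.236) and 0.91 (adjusted p = 0.0175), CXCL8, at 0.61 (adjusted p = 0.385) and 0.89 (adjusted p = 0.0219), and LRG1, at 0.97 (adjusted p = 0.0535) and 1.1 (adjusted p = 0.0345). For VEGFA, GPI, NARF, CFB, ICAM1 and DHRS3 the difference was 0.16, 0.13, -0.1, -0.02, 0.09 and -0.38, and 0.4, 0.21, -0.02, 0.1, 0.2 and -0.17 without replicate 4, none of them called in either fit, which does not show that the levels were the same.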

How the data were processed

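RNA sequencing libraries of 3 groups of 4 were used. The deposited values are raw counts per gene for GRCh38, made by the authors with HISAT2 2.2.1 and featureCounts 2.0.6, and DESeq2 1.42.0 is also listed, per the submitters' processing notes. The sources used here do not give the annotation release, the strand setting or how multiply matching reads were counted. All 58735 identifiers matched GENCODE names. Depth was 26227140 to 42430001 counts per library.

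Counts were tested with edgeR 4.0.16 in R 4.3.3 (limma 3.58.1): TMM scaling, filterByExpr by group, robust quasi-likelihood fit over the 12 libraries and Benjamini-Hochberg adjustment at 0.05. The fit without cardiac replicate 4 used the other 11 libraries and the same 17468 genes. The biological coefficient of variation was 14.9%, and 13.3% without that library. Tested on simulated data for the cardiac comparison (17114 genes), 50.7%, 62.7% and 89.4% of changes of 1.5-, 2- and 4-fold were recovered and 4.26% of calls were false. Without cardiac replicate 4 it was 50.7%, 56.7% and 86.4%, with 5.15% false. The simulated libraries of a group shared a common mean and genes were drawn independently, so no library deviated as cardiac replicate 4 did. The false shares therefore do not carry over to the real calls.

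Members, gene lists and rules were chosen with earlier results of these data known. Named by rule were the 10 highest and 10 lowest protein-coding genes called in both fits without overlap (mean log2 CPM above 1), 6 and 6 called only without cardiac replicate 4, up to 3 members per list, 20 fixed genes, 3 and 3 long noncoding RNAs and the 5 most abundant genes in each direction. Further list members were named after their values were seen. A few named items are not reported here. Lists are described by counts and medians with no test. Alternatives were other scalings, no filter, DESeq2, the 8 libraries alone, a minimum change, the replicate number as a block and each library left out.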

Additional observations from a re-analysis of the deposited data

Results flagged for a closer look

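Among the 224 genes named in the report, 30 of 448 groups of 4 libraries held 1 library whose CPM stood apart, meaning that its gap to the nearest library divided by the range of the group was above Dixon's critical value for 4 values. Chance alone gives about 1 such group in 20. The ratio is in brackets after each gene. Cardiac replicate 1 was the highest library of its group for PSAT1 (0.937). Cardiac replicate 2 was the highest library of its group for LAMB2 (0.881). Cardiac replicate 4 was the highest library of its group for ATOH8 (0.909), AXL (0.866), CYP1A1 (0.842), EFEMP1 (0.918), ID1 (0.957), ID3 (0.843), IFIT3 (0.848), ILDR2 (0.834) and MYL9 (0.879). Cardiac replicate 4 was the lowest library of its group for FTH1 (0.869), MMP1 (0.843) and TNIP1 (0.905). Monoculture replicate 2 was the highest library of its group for ADM (0.902), CA9 (0.906), LOX (0.856), P4HA2 (0.848), PLIN2 (0.868) and TRIB3 (0.890). Monoculture replicate 2 was the lowest library of its group for AXL (0.871), MCM10 (0.861) and MUC5AC (0.898). Monoculture replicate 3 was the highest library of its group for AC245041.2 (0.851), CDC6 (0.930), MYL9 (0.856), NEXN (0.857) and PSAT1 (0.863). Monoculture replicate 3 was the lowest library of its group for CXCL8 (0.846) and MMP11 (0.878).

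For 35 of these genes the cardiac and the hepatic co-culture differed in edgeR's quasi-likelihood test over all tested genes. Cardiac minus hepatic log2 differences were positive for AC245041.2 (1.85), ATOH8 (2.18), CCL20 (1.54), CDKN1A (0.38), CPT1A (0.54), EFEMP1 (0.64), FKBP5 (2.42), FTH1 (0.43), HK1 (0.25), HSPA5 (0.39), INHBB (0.80), ITGA5 (0.44), MT1E (1.80), MT2A (1.07), NFKBIA (0.69), PDIA4 (0.28), PLIN2 (0.88), ROS1 (2.30), SAA2 (1.54), SERPINA1 (0.81), TGM2 (0.40), TNIP1 (0.55) and YAP1 (0.32). They were negative for CAPN8 (-1.41), CTGF (-0.46), CYR61 (-0.63), HIF1A (-0.41), HSPH1 (-0.34), IER3 (-0.65), ITGB3 (-1.50), LAMA3 (-0.44), LAMB1 (-0.36), LTBP4 (-0.49), MT-ATP8 (-0.50) and NRG1 (-0.49). Without cardiac replicate 4, 32 of them were still called, and not LTBP4 (-0.41, adjusted p = 0.0657), MT-ATP8 (-0.51, adjusted p = 0.0515) and SERPINA1 (0.87, adjusted p = 0.0746).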

How the results depend on the processing

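The count of 1443 genes (862 higher, 581 lower) became 2406 (1395 and 1011) with DESeq2, 2219 (1228 and 991) without the low-count filter, 4018 (1986 and 2032) in the 8 libraries without cardiac replicate 4, and 1 (1 and 0) in edgeR's test against a log2 change of 0.5, where 644 had an unadjusted p under 0.05. Leaving out 1 library at a time gave 257 to 3375 genes, 188 to 1742 higher and 69 to 1633 lower. Cardiac against hepatic co-culture gave 1080 genes, 119 with the minimum change and 685 to 1278 with 1 library left out. Scaling by DESeq2 size factors gave 1443 (858 and 585) and the 8 libraries alone 1444 (815 and 629). Of the 26 rule-named genes that edgeR did not call with all libraries, DESeq2 called 15. Among genes chosen by the naming rule, none that was called with all libraries or under an alternative changed direction, but COL1A1, HMOX1 and IL11, called in no fit, crossed 0 (-0.08 to 0.13, -0.05 to 0.15 and -0.01 to 0.37 with 1 library left out). The cause of these shifts was not tested.

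With the replicate number as a block the counts were 1310 genes (798 higher, 512 lower), and 891 against the hepatic co-culture, and VEGFA, CHI3L2, C1S, ITGB3, ENG, IER2, AQP3 and FBXL19-AS1 were not called. Without cardiac replicate 4 the block gave 2155 (1167 and 988) and 513. Deviations of same-numbered monoculture and cardiac libraries correlated at 0, 0.11, -0.03 and 0.05. Monoculture replicates 2 and 4 correlated best with the cardiac library of their own number, and replicates 1 and 3 did not. Such weak correlations cannot decide whether samples were paired. The numbers are those of the sample titles, the deposited library names carry partly other numbers, and a pairing by those names was not tested. Depth limits the genes near the filter: a level of 0.255 CPM rests on few counts.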

Other observations

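The 12 endothelial markers, 3 of which were called higher, summed to 38.49 to 47.29 CPM in monoculture and 46.09 to 49.86 CPM in the cardiac co-culture, with ERG at 0. Most of that sum is EGFL7, at 24.18 to 26.59 and 25.31 to 31.81 CPM, and PECAM1, at 7.963 to 14.15 and 10.04 to 10.28 CPM, both called in neither fit. The 8 markers of undifferentiated stem cells summed to 8.835 to 11.37 CPM and 6.302 to 12.04 CPM, with NANOG, DPPA4, TDGF1 and ZFP42 at 0. The 10 immune cell markers summed to 5.811 to 12.71 CPM and 11.74 to 15.43 CPM, with CD3E and MS4A1 among those at 0.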
